A study of Mus musculus with 26 samples.

Results

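The comparison set BMP4 against LDN193189 in mouse embryonic stem cells that carry a knockout of Hmces (HMCES-KO). It used 4 of the 26 libraries of the series, chosen by their labels: the lines HMCES-KO1 and HMCES-KO2 after BMP4 at 10 ng/ml for 2 h, and the same lines after LDN193189 at 50 nM for 2 h, with 1 library of each line under each agent. A further 4 libraries, from wild type (WT) cells given BMP4 or LDN193189 at the same doses and time, were fitted alongside and show how the response compares between genotypes. All 8 came from C57BL/6 cells kept in 15% serum medium with gelatin as the substrate. The sources used here do not say how the knockout was made or whether each line is 1 clone. Neither table held an untreated library, so each value contrasts a ligand with an inhibitor and says nothing of either against untreated cells. The BMP4 libraries stood in 1 table and the LDN193189 libraries in another, so table and treatment cannot be told apart.

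BMP4 is a secreted ligand that binds receptor pairs of type I and type II serine/threonine kinases. The type I receptors phosphorylate SMAD1 and SMAD5, which join SMAD4 and switch on target genes such as the Id genes, and LDN193189 blocks the kinases of these type I receptors. In mouse embryonic stem cells grown in serum, BMP activity is known to keep Id genes on, and their products hold back neural differentiation. Nodal and activin signal through other type I receptors to SMAD2 and SMAD3, and the question behind the series was how HMCES, a protein that binds abasic sites in DNA, bears on the balance of the 2 branches.

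A total of 5 genes differed between the agents in HMCES-KO cells, and promoter sequence was on hand for Id2 and Id3 (RefSeq, build GRCm38.p6, 250 bases before to 50 after the annotated start). They are shown because they belong to genes that rose and hold short motifs linked with SMADs. Capitals mark GGCGCC, a GC-rich element linked with SMAD1 and SMAD5, in Id2 and the SMAD box GTCTG or its reverse complement CAGAC in Id3. The Id2 sequence is from chr12:25096043-25096342 on the minus strand and the Id3 sequence from chr4:136143572-136143871 on the plus strand. Id1, Lefty1 and Smad7 had no entry.
Id2 promoter: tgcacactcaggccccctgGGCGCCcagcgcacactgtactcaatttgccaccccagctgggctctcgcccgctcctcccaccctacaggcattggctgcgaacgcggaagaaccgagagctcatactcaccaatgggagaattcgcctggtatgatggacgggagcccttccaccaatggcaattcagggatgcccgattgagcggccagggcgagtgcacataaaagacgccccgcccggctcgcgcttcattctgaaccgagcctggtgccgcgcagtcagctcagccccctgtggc
Id3 promoter: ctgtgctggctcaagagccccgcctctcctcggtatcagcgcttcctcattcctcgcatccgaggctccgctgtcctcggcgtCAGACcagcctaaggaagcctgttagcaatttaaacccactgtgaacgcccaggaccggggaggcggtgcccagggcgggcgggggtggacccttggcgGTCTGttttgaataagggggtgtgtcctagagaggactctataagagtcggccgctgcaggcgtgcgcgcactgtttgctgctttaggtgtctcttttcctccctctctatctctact
With the start site as 0 and upstream bases negative, the GGCGCC of Id2 began at -231. In Id3 the GTCTG began at -68 and the CAGAC at -167. Both motifs were searched on both strands, and they share no overlap in these windows. Among the 10011 tested genes with an entry, 24.9% held GGCGCC and 52.3% held GTCTG on either strand, and each motif was found in 4 of the 10 listed BMP targets with an entry.

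Whole reads recovered from the TPM values (reads per gene length, scaled to 1000000 per library) came to 5.15 to 5.24, in units of 1000000 reads, in the 4 HMCES-KO libraries and 4.07 to 4.55 in the WT libraries. Hmces itself (chromosome 6, 87913907 to 87936619) had 333 and 177 TPM in KO1 and KO2 under BMP4 and 325 and 143 TPM under LDN193189, against 507 and 531 TPM in WT under BMP4 and 525 and 530.2 TPM in WT under LDN193189. KO1 kept 64.1% of the WT mean under BMP4 and 61.6% under LDN193189, and KO2 34.0% and 27.0%, and transcript level does not show how much protein was left. All 9 embryonic stem cell markers were listed, with summed levels of 23703 to 26687 TPM under BMP4 and 24658 to 27124 TPM under LDN193189 in HMCES-KO cells. Of 10 fibroblast markers 4 were listed, summing to 39.6 and 42.8 TPM under BMP4 and 51.7 and 57.8 TPM under LDN193189, and Col1a2, Col3a1, Postn, Lum, Dcn and Prrx1 were not listed in both tables. Endoderm markers summed to 30.6 to 50.7 TPM and trophectoderm markers to 40.9 to 81.3 TPM in the HMCES-KO libraries, and neuroectoderm markers to 921 to 1243 TPM, nearly all of it Tubb3.

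Between BMP4 and LDN193189 the test called 5 genes in HMCES-KO cells. Id1, Id2 and Id3, whose products block basic helix-loop-helix factors and which are the best known direct targets of BMP, rose 3.68-fold to 8.02-fold within a line. Lefty1, a secreted antagonist of Nodal, and Smad7, which blocks SMAD activation at the receptor, rose 2.01-fold to 2.67-fold within a line. In limma's moderated test on log2(TPM + 1), with the line as a paired term and Benjamini-Hochberg adjustment over 12526 genes, these 5 passed an adjusted p of 0.05, which is 0.0399% of the genes tested. No gene fell by that test. At an unadjusted p under 0.05, 318 genes (2.54%) were higher and 431 (3.44%) lower, 5.98% in all, and limma voom on the recovered reads called 13 genes higher and 2 lower, or 0.125%. In bulk RNA a change in the share of responding cells and a change in RNA per cell cannot be told apart.

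Id1 (chromosome 2, 152736251 to 152737410) had the highest levels of the 5. It stood at 3082 TPM in KO1 and 4370.5 TPM in KO2 under BMP4, against 739 and 545 TPM under LDN193189, on 6989 and 10053 reads against 1664 and 1242. The groups did not overlap, and KO2 had the higher level under BMP4 and the lower one under LDN193189. With 2 libraries in each group, unchanged genes can also stand apart, and the share of all genes that did so was not counted. The difference on the log2 scale was 2.53 ± 0.17 (SE; limma adjusted p = 0.00037), and the ratio of TPM was 4.17-fold in KO1 and 8.02-fold in KO2. Id2 (chromosome 12, 25093799 to 25096092), whose promoter is shown above, had 328 and 583 TPM under BMP4 and 79.1 and 110.2 TPM under LDN193189. Both BMP4 libraries lay above both LDN193189 libraries, with KO2 above KO1 under each agent. Its log2 difference was 2.22 ± 0.14 (limma adjusted p = 0.00037), with 2.04 in KO1 and 2.39 in KO2. Id3 (chromosome 4, 136143822 to 136145392) had 363 and 579 TPM under BMP4 and 98.7 and 109 TPM under LDN193189. Here too the groups stood apart, and the log2 difference was 2.13 ± 0.15 (limma adjusted p = 0.00037), with 1.87 in KO1 and 2.40 in KO2. These 3 Id genes and Smad7 had the larger log2 difference in KO2, while Lefty1, Bambi, Id4 and Smad6 had it in KO1. With 1 library per line and agent these orders were not tested. Without limma's trended prior no gene was called, and the adjusted p of each of Id1, Id2 and Id3 was 0.28.

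**Figure D1:**
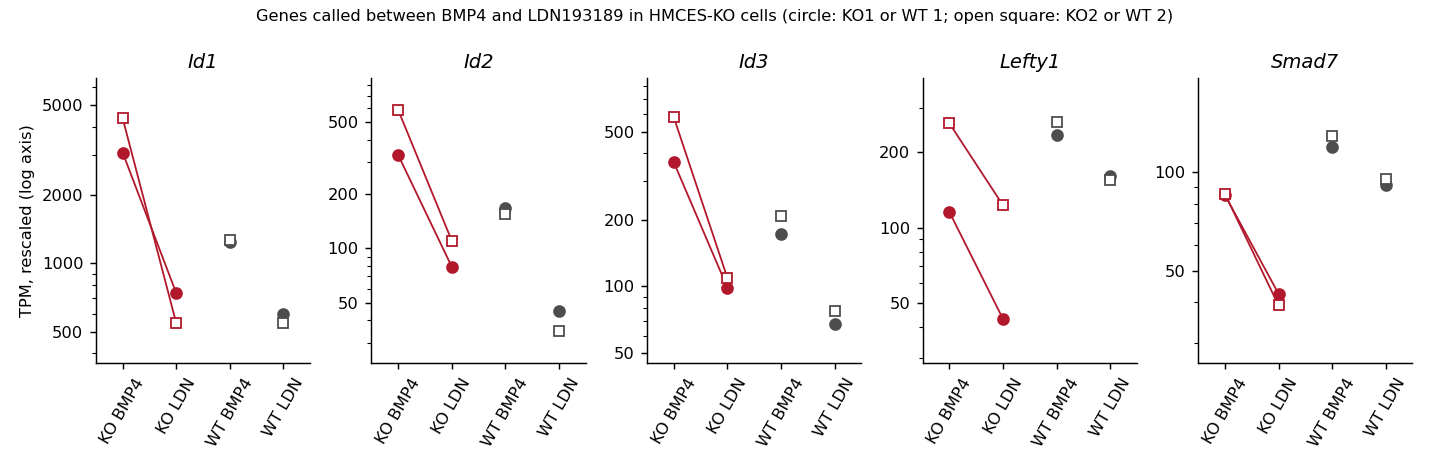
The 5 called genes in each library, in TPM on a log axis, with HMCES-KO in red left of WT in grey and BMP4 left of LDN193189 within each genotype. Lines join the libraries of one HMCES-KO line, filled circles are KO1 or WT replicate 1 and open squares KO2 or WT replicate 2, and every red line falls toward LDN193189, for Id1 to 739 TPM in KO1 and 545 TPM in KO2.

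Lefty1 (chromosome 1, 180935022 to 180938401) is best known as a target of Nodal signalling and feeds back on it. It had 115 TPM in KO1 and 261 TPM in KO2 under BMP4, against 43.1 and 123 TPM under LDN193189. The groups overlapped, because KO2 under LDN193189 exceeded KO1 under BMP4, while each line was higher under BMP4. The paired log2 difference was 1.24 ± 0.11 (limma adjusted p = 0.0031), and without the line term the adjusted p was 1. Smad7 (chromosome 18, 75367365 to 75395935), a target of both SMAD branches, had 85.1 and 85.8 TPM under BMP4 and 42.4 and 39.1 TPM under LDN193189. The lines differed little within an agent, and the groups stood far apart. Its log2 difference was 1.05 ± 0.11, with 0.99 in KO1 and 1.11 in KO2 (limma adjusted p = 0.011). Lefty1 lost its call without either KO1 library (limma adjusted p = 0.06 and 0.061), and Smad7 without any 1 of the 4 HMCES-KO libraries (0.065 to 0.32). With all 16 treated libraries in the fit, both stood at a limma adjusted p of 0.15, and over all alternatives the adjusted p ran from 1.3e-05 to 1 for Lefty1 and from 1.2e-06 to 0.6 for Smad7.

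**Figure D2:**
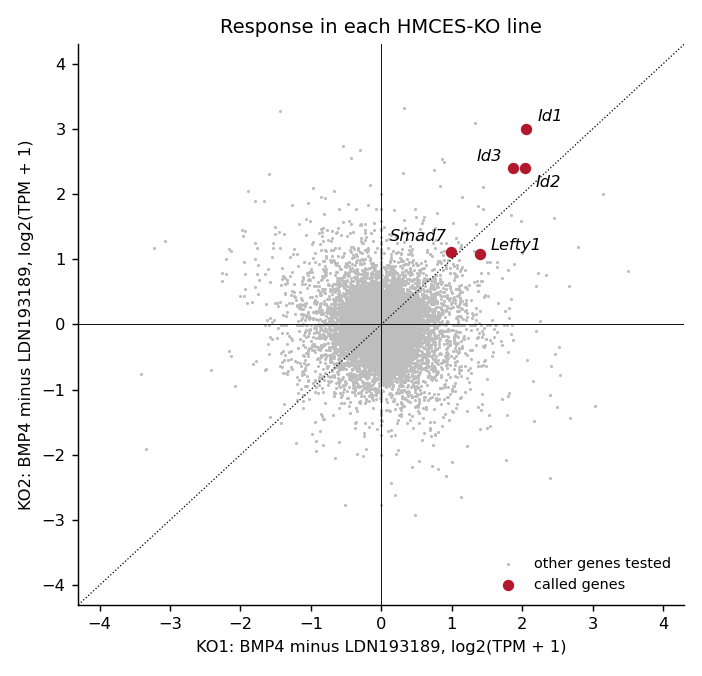
The log2 difference BMP4 minus LDN193189 in KO2 (vertical axis) against that in KO1 (horizontal axis) for each gene tested, with called genes in red and the dotted line marking equal values. Id1 (2.06 in KO1 and the highest of the 5 in KO2), Id2 (2.04, 2.39) and Id3 (1.87, 2.40) lie at the upper right, with Lefty1 (1.40, 1.08) and Smad7 (0.99, 1.11) nearer to the other genes.

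Seen line by line, Id1, Id2, Id3, Lefty1 and Smad7 were higher under BMP4 in both lines, as were many genes by small amounts. Of all 12526 genes, 2800 (22.4%) were higher under BMP4 in both lines, 3304 (26.4%) lower in both and 6369 (50.8%) went opposite ways. The cut for a 2-fold difference was 1 on the scale of log2(TPM + 1). A difference of at least 2-fold in both lines was seen upward in 25 genes (0.2%), downward in 11 (0.0878%) and in opposite directions in 63 (0.503%). Among the 5955 genes with a mean of 20 TPM or more, where the line differences had an SD of 0.24 in KO1 and 0.30 in KO2 on the log2 scale, the upward genes were Id1, Id2, Id3 and Lefty1 (0.0672%). Smad7, at 2.01-fold in KO1 and 2.20-fold in KO2 by TPM, missed this cut, with 0.99 in KO1. By the same cut none of these better expressed genes was 2-fold lower in both lines or 2-fold apart in opposite directions.

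The list of BMP SMAD1/5 targets held 22 genes, of which 19 were listed in both tables and 18 were tested. Grem1 was below the filter on low values, and Smad9, Dlx3 and Atoh8 were not listed in both. By limma 4 members rose (Id1, Id2, Id3 and Smad7) and 0 fell, with a median log2 difference of 0.63 over the 18, against -0.02 over all genes tested. Of the 18, 12 (66.7%) were higher under BMP4 in both lines, against 22.4% of all genes tested. Of the rest, 1 was lower in both and 4 went opposite ways. The members were chosen with results of these data known, so these counts describe the list and are no independent evidence of its direction.

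Bambi, a decoy receptor that dampens BMP signalling, came closest to a call among the rest of the list. It had 23.4 TPM in KO1 and 22.1 TPM in KO2 under BMP4, against 10.9 and 12.4 TPM under LDN193189. Its log2 difference was 0.91 ± 0.18 (limma adjusted p = 0.41), and on the recovered reads limma voom gave 0.97 with an adjusted p of 0.016, while over all alternatives the adjusted p ran from 0.016 to 0.95. Id4, the fourth Id gene, had 36.4 and 45.3 TPM under BMP4 and 16.5 and 36.8 TPM under LDN193189. Its log2 difference was 1.10 in KO1 and 0.29 in KO2, a mean of 0.69 ± 0.20 (limma adjusted p = 0.77). Smad6, an inhibitory SMAD of the BMP branch, showed the same unevenness, with 12.3 and 19.2 TPM under BMP4 and 5.47 and 15.1 TPM under LDN193189, a log2 difference of 1.04 in KO1 and 0.33 in KO2. The values of both genes in KO1 under LDN193189 were the lowest of the 4 libraries.

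Targets known from later embryonic tissues were low or differed between the lines. Msx1, Gata3 and Hand1, transcription factors of BMP-responsive tissues, stayed under 5 TPM in each HMCES-KO library, with log2 differences of 0.24 ± 0.46, 0.05 ± 0.44 and 0.46 ± 0.57. Msx2 had 8.76 and 21.1 TPM under BMP4 and 14.5 and 14.6 TPM under LDN193189, and its sign differed between the lines, at -0.66 in KO1 and 0.50 in KO2. Cdx2, a trophectoderm factor, had 1.81 and 12.04 TPM under BMP4, and under LDN193189 it was listed at 0 in KO1 and at 14.2 TPM in KO2. Gata2, at 3.97 and 8.58 TPM under BMP4 and 3.85 and 3.49 TPM under LDN193189, had a log2 difference of 0.56 ± 0.43. Hey1, a target shared with Notch signalling, and Nog, a secreted BMP antagonist, had log2 differences of 0.71 ± 0.40 and 0.63 ± 0.44. The 95% intervals of Msx1 (-0.80 to 1.28), Gata3 (-0.94 to 1.04) and Hand1 (-0.82 to 1.75) held both no change and a rise of 2-fold.

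Well expressed members without a call showed small differences. Dusp9, a phosphatase for ERK, had 165 and 269.9 TPM under BMP4 and 147 and 255 TPM under LDN193189. Tbx3, a factor of naive pluripotency, had 214 and 131 TPM under BMP4 and 178 and 120.4 TPM under LDN193189. Their log2 differences were 0.12 ± 0.08 and 0.19 ± 0.10 (limma adjusted p = 0.88 and 0.87). The Bmp4 transcript of the cells themselves was at 556 and 578 TPM under BMP4 and 640.3 and 593 TPM under LDN193189, a log2 difference of -0.12 ± 0.08.

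**Figure D3:**
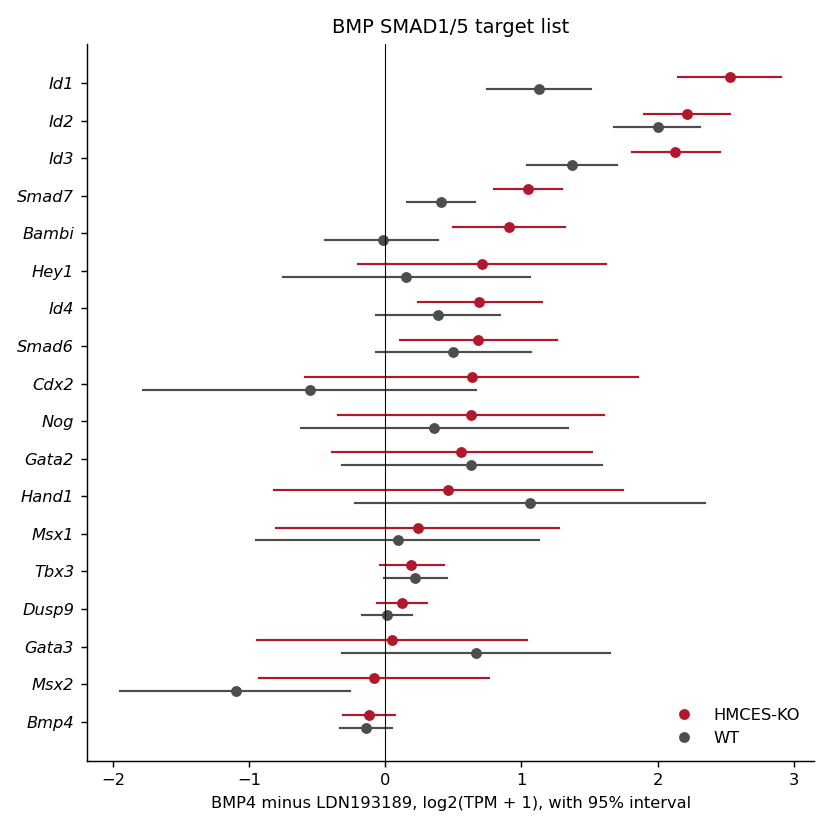
The log2 difference BMP4 minus LDN193189 with its 95% interval for the 18 tested members of the BMP list, HMCES-KO in red above WT in grey. Id1 (2.53 in HMCES-KO, 1.13 in WT), Id2 (2.22, 2.00) and Id3 (2.13, 1.37) lead, Bambi stands at 0.91 in HMCES-KO and -0.02 in WT, and the intervals of low genes such as Hand1 and Cdx2 span 0 in both genotypes.

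Of the list of Nodal/activin SMAD2/3 targets, 17 of 18 genes were tested, and by limma 2 rose (Lefty1 and Smad7) and 0 fell. The median log2 difference was 0.26, and 10 of the 17 (58.8%) were higher in both lines, against 22.4% of all genes tested. Some other lists had like shares, with 9 of 13 for the integrated stress response (69.2%) and 6 of 10 for Notch targets (60%). The Notch count includes Hey1, which is also in the BMP list. Across all lists this share ran from 0% (2-cell-like, 3 tested) to 69.2%. Lefty2, Skil, Nodal and Pmepa1 are shown by a choice made after their values were seen. Lefty2, a relative of Lefty1, had 107 and 102 TPM under BMP4 and 64.2 and 73.7 TPM under LDN193189, with a log2 difference of 0.60 ± 0.11 (limma adjusted p = 0.41). Skil, a repressor of SMAD2 and SMAD3 activity, had 30.03 and 47.1 TPM under BMP4 and 14.9 and 29.9 TPM under LDN193189. Each line was higher under BMP4, with a log2 difference of 0.80 ± 0.16 (limma adjusted p = 0.41), and limma voom called both genes, at 0.62 and 0.81 (adjusted p = 0.039 and 0.0028). Nodal itself had 422 and 478 TPM under BMP4 and 451 and 442 TPM under LDN193189, a log2 difference of 0.01 ± 0.09. Pmepa1, a feedback inhibitor, had a log2 difference of 0.35 ± 0.12 (limma adjusted p = 0.82). Gsc, an organizer factor, was listed at 0 in both lines under LDN193189 and had 0.811 and 4.80 TPM under BMP4, which was 2 and 12 reads.

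The machinery of the pathway gave no call. Of 20 tested receptors and SMADs, 0 passed, 0 had an unadjusted p under 0.05 and voom called 0, with a median log2 difference of -0.14 and Tgfbr2, a TGF-beta receptor, furthest from 0 (-0.73 ± 0.41). The BMP type I receptor Bmpr1a had a log2 difference of 0.21 ± 0.21, the type II receptor Bmpr2 -0.29 ± 0.23 and the type I receptor Acvr1 -0.54 ± 0.35. The signal transducers Smad1 and Smad5 had -0.39 ± 0.21 and -0.18 ± 0.25, and Smad4, their common partner, 0.09 ± 0.16. Of 16 tested ligands and antagonists 0 passed as well, none had an unadjusted p under 0.05 and voom called 0, with a median of -0.03 and a range from -0.64 (Fstl3, a follistatin relative) to 0.63 (Nog).

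No pluripotency gene was called by limma or voom. An unadjusted limma p under 0.05 was seen in 3 of 16 naive, 1 of 9 core and 2 of 12 formative members, against 5.98% of all genes tested. Of the 3 naive members, Dppa5a was higher under BMP4 (0.39 ± 0.10, limma adjusted p = 0.71). Nr0b1 (-0.21 ± 0.07) and Zfp42 (-0.15 ± 0.06) were lower, both at a limma adjusted p of 0.82. Among 9 core members the log2 differences ran from -0.22 (Lin28a, an RNA-binding protein) to 0.10, and among 16 naive members from -0.25 to 0.43 (Dppa3, at 2.87 and 8.48 TPM under BMP4 and 2.31 and 5.14 TPM under LDN193189). Pou5f1, a core factor, had 6622 and 5923 TPM under BMP4 and 6800.1 and 5782 TPM under LDN193189, a log2 difference of -0.00 ± 0.06. Nanog had 1055 and 922 TPM under BMP4 and 998 and 846 TPM under LDN193189, a log2 difference of 0.10 ± 0.07. Klf4, at 532 and 399.9 TPM under BMP4 and 499 and 498 TPM under LDN193189, had -0.11 ± 0.10.

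Beside the BMP and Nodal target lists, 21 lists with 258 tested genes covered lineage, pluripotency, signalling and stress. Some of these genes also belong to the BMP or Nodal target lists, among them Gsc, Mixl1, Eomes and Hand1 of the primitive streak and mesoderm list. By limma 0 of the 258 were called, and voom called 1, Atf4. An unadjusted limma p under 0.05 was seen in 24 of the 258, against 5.98% of all genes tested. Medians of the lists ran from -0.15 to 0.45. The primitive streak and mesoderm list had the highest. Of its 15 tested members, 7 (46.7%, against 22.4% of all genes) were higher in both lines and 1 lower in both. Most of its members were low, and Cdx1 was the highest, at a mean of 19.6 TPM over the 8 libraries. Fgf8, at a mean of 3.11 TPM, had the list's smallest p (1.62 ± 0.49, limma adjusted p = 0.77). Its log2 difference was 2.66 in KO1, 0.58 in KO2 and 1.41 in WT. Eomes had 8.25 and 5.46 TPM under BMP4 and 5.09 and 4.29 TPM under LDN193189. Mixl1 had 0.446 and 2.64 TPM under BMP4, and under LDN193189 was listed at 0 in KO1 and at 1.33 TPM in KO2. Atf4, the transcription factor of the integrated stress response, had 4643 and 4077 TPM under BMP4 and 3868 and 3068 TPM under LDN193189, a log2 difference of 0.34 ± 0.07 (limma adjusted p = 0.46), and voom gave 0.35 (adjusted p = 0.00058). Among the other lists' members furthest from 0 were Ccnd2, a cyclin of the G1 phase (1.06 ± 0.33), Krt8, a keratin of simple epithelia (-0.73 ± 0.20), Insig1, a brake on cholesterol synthesis (-0.46 ± 0.11), and Sox3, a neural and epiblast factor (-0.36 ± 0.14), at limma adjusted p of 0.53 to 0.82. Further values of this kind were 0.65 ± 0.42 for the immediate early gene Fos, 0.57 ± 0.21 for the ERK phosphatase Dusp5, -0.37 ± 0.21 for the neural factor Sox1, -0.51 ± 0.22 for the mesenchymal factor Twist1 and 0.69 ± 0.37 for the endoderm factor Foxa1. The remaining lists were furthest from 0 at Cdx1 (0.58 ± 0.37), Sycp3, a meiotic protein (0.69 ± 0.29), Ankrd37 (-0.72 ± 0.34), Usp17lb (-0.42 ± 0.69) and Bag3, a co-chaperone (0.19 ± 0.11).

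**Figure D4:**
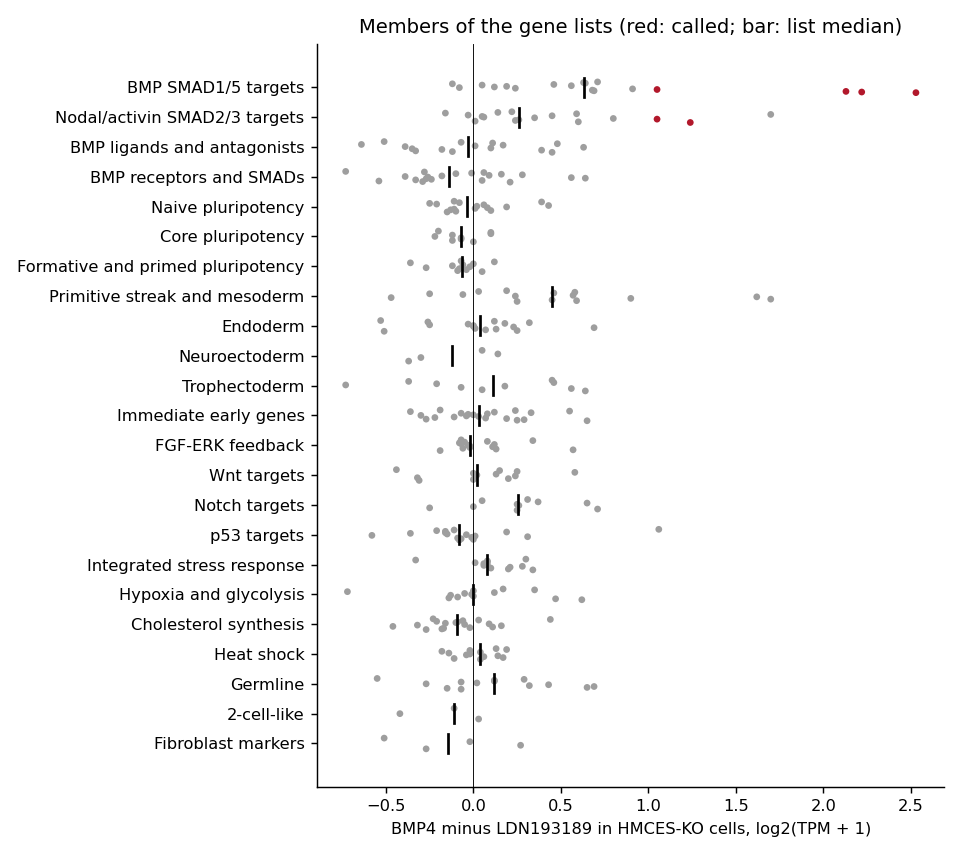
The log2 difference BMP4 minus LDN193189 in HMCES-KO cells for each tested member of the 23 lists, with called members in red and the list median as a bar. Called members appear in the BMP list (4 of 18, median 0.63) and in the Nodal/activin list (2 of 17, median 0.26), with Smad7 in both, and the medians of the other lists lie between -0.15 and 0.45.

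No gene fell by the test, and the genes with the smallest unadjusted p among the lower ones had modest levels. Wasf3, an actin regulator, had 12.035 and 14.4 TPM under BMP4 and 22.4 and 26.0 TPM under LDN193189, a log2 difference of -0.83 ± 0.16 (limma adjusted p = 0.41). The other 5 of the 6 were Fam173a (-0.75 ± 0.14), Gpr135 (-1.44 ± 0.28), Tmem258 (-1.26 ± 0.25), 9930012K11Rik (-1.12 ± 0.23) and Chml (-0.75 ± 0.16), each lower in both lines and each at a limma adjusted p of 0.41. The next gene upward was 3110082J24Rik, with 7.82 and 9.25 TPM under BMP4, against 1.56 TPM in KO2 and a listing at 0 in KO1 under LDN193189 (limma adjusted p = 0.19). Its values rested on 5 and 6 reads in KO1 and KO2 under BMP4 and on 0 and 1 under LDN193189.

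In WT cells the same contrast called 2 genes, Id2 and Id3, or 0.016% of the genes tested, both higher under BMP4, while 6.03% had an unadjusted p under 0.05 and voom called 7 genes (0.0586%). Id2 had 168 and 156 TPM under BMP4 and 45.4 and 34.9 TPM under LDN193189, a log2 difference of 2.00 ± 0.14 (limma adjusted p = 0.0015). Id3 had 172 and 208 TPM under BMP4 and 67.7 and 77.4 TPM under LDN193189, a log2 difference of 1.37 ± 0.15 (limma adjusted p = 0.027). Neither pair of groups overlapped. Id3 lost this call without any 1 of the 4 WT libraries (limma adjusted p = 0.051 to 0.31), and without the line term neither gene was called (0.22 for Id2 and 0.39 for Id3). Id1 in WT had 1246 and 1263 TPM under BMP4 and 599 and 546 TPM under LDN193189, again without overlap, with a log2 difference of 1.13 ± 0.17 (limma adjusted p = 0.24). It was called in WT once any 1 HMCES-KO library left the fit (limma adjusted p = 0.0018 to 0.0024), and the fit shares 1 estimate of the spread between genotypes. Lefty1 had 235 and 263 TPM under BMP4 and 160.0 and 155 TPM under LDN193189 in WT, and Smad7 had 119 and 129 TPM under BMP4 and 91.6 and 95.5 TPM under LDN193189. Their WT log2 differences were 0.66 ± 0.11 and 0.41 ± 0.11 (limma adjusted p = 0.26 and 0.70).

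The 5 genes were picked by their test in HMCES-KO cells, which favours a larger value there, so their differences from WT below describe them and are not independent evidence. The difference of responses passed the test for none of the 12526 genes (0%). By limma 778 genes (6.21%) had an unadjusted p under 0.05 for this difference, and voom called 2 (0.0167%), Id1 and Anp32a. The difference of log2 responses, HMCES-KO minus WT, was 1.40 for Id1 (95% interval 0.86 to 1.94, limma adjusted p = 0.55) and 0.22 for Id2 (-0.23 to 0.67, adjusted p = 0.91). It was 0.76 for Id3 (0.30 to 1.22, limma adjusted p = 0.65), 0.58 for Lefty1 (0.23 to 0.94, 0.65) and 0.65 for Smad7 (0.29 to 1.00, 0.55). Bambi, at 15.1 and 15.0 TPM under BMP4 and 15.0 and 15.6 TPM under LDN193189 in WT, had a difference of 0.93 (0.35 to 1.52, limma adjusted p = 0.65). For Id1 the HMCES-KO and WT levels lay apart under BMP4, at 3082 and 4370.5 TPM in HMCES-KO and 1246 and 1263 TPM in WT, and overlapped under LDN193189, at 739 and 545 TPM in HMCES-KO and 599 and 546 TPM in WT. For Smad7 the HMCES-KO levels were the lower ones under both agents, by more under LDN193189. The Id1 difference was 0.93 and not called without KO2 under either agent, and 1.87 and called without KO1 under BMP4 or LDN193189 (limma adjusted p = 0.0032 and 0.0027), and over all alternatives its adjusted p ran from 5.5e-05 to 1.

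Other genes with the smallest unadjusted p for the difference between genotypes had values of opposite sign in HMCES-KO and WT cells. Picking genes by the p of this same difference favours opposite signs, so the signs describe these genes and are not independent evidence. Romo1, a mitochondrial protein, had 46.6 and 31.7 TPM under BMP4 and 24.1 and 16.4 TPM under LDN193189 in HMCES-KO cells, against 30.8 and 24.1 TPM under BMP4 and 38.6 and 51.7 TPM under LDN193189 in WT cells. Dync1li1, a light intermediate chain of dynein, had 89.5 and 74.5 TPM under BMP4 and 72.7 and 58.3 TPM under LDN193189 in HMCES-KO cells. In WT cells Dync1li1 had 46.9 and 53.7 TPM under BMP4 and 73.4 and 76.4 TPM under LDN193189. Their differences of log2 responses were 1.61 ± 0.26 and 0.89 ± 0.17. Izumo4 (2.58 ± 0.47), Kcnrg (-2.45 ± 0.45), Ube2s (-2.24 ± 0.41) and 6720489N17Rik (-1.99 ± 0.37) were lower expressed, under 40 TPM in each library, and all 6 named here had a limma adjusted p of 0.55. Reads per library were few, from 2 to 19 for Izumo4, 4 to 22 for Kcnrg, 7 to 30 for Ube2s and 5 to 23 for 6720489N17Rik.

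Activin A at 50 ng/ml and SB431542 at 10 µM, an inhibitor of the Nodal/activin receptors, were given to the same lines for 2 h, and their values show where BMP4 and LDN193189 lie. Id1 in KO1 and KO2 stood at 1708 and 1439 TPM under activin A and 1892 and 1895 TPM under SB431542, between its values under BMP4 and LDN193189. Id2 had 275 and 279 TPM under activin A and 249 and 214 TPM under SB431542, and Id3 132 and 173 TPM under activin A and 202 and 245 TPM under SB431542, again between the BMP4 and LDN193189 values in each line. Lefty1 had 188 and 229 TPM under activin A and 2.23 and 3.20 TPM under SB431542, so both HMCES-KO lines under LDN193189 were far above SB431542. Smad7 had 136 TPM in each line under activin A, above its level under BMP4, and 28.4 and 14.1 TPM under SB431542, below its level under LDN193189. WT cells kept another order for Id1, with 1537 and 1564 TPM under activin A and 1526 and 1568 TPM under SB431542, above the 1246 and 1264 TPM under BMP4. Lefty1 in WT had 54.9 and 52.2 TPM under activin A, below the 160.1 and 155 TPM under LDN193189. These tables were also made separately, and no test was run across the 4 agents.

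**Figure D5:**
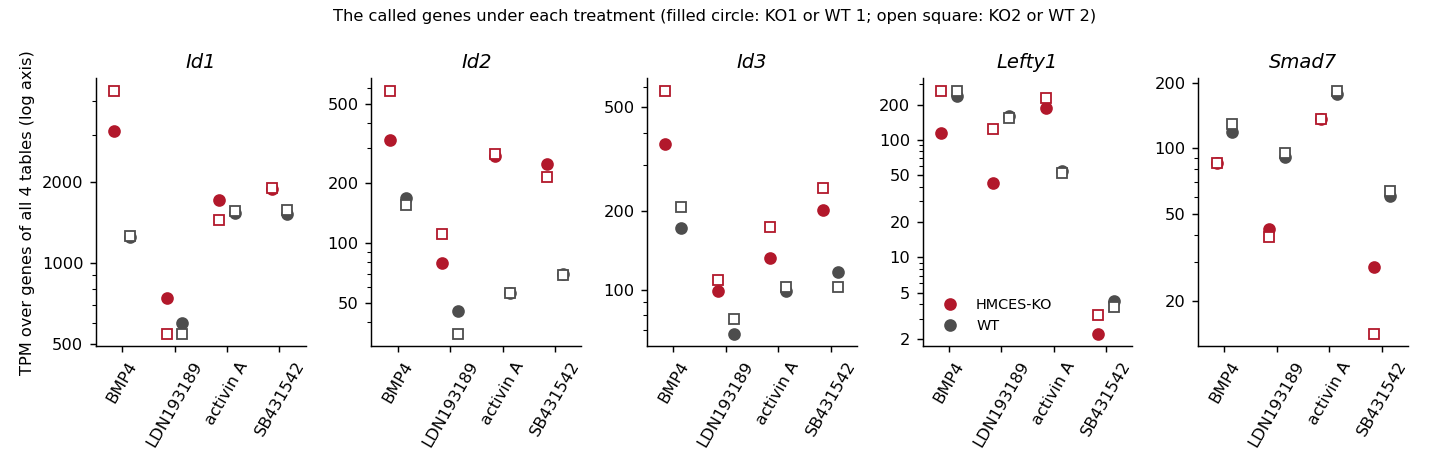
The 5 called genes under BMP4, LDN193189, activin A and SB431542, in TPM on a log axis over genes of all 4 tables, HMCES-KO in red left of WT in grey, circles for KO1 or WT replicate 1 and squares for KO2 or WT replicate 2. In each HMCES-KO line the Id genes are highest under BMP4 and lowest under LDN193189, while Lefty1 (2.23 and 3.20 TPM) and Smad7 (28.4 and 14.1 TPM) are lowest under SB431542.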

How the data were processed

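Total RNA was sequenced after a TIANGEN purification and an Illumina TruSeq library kit, per the labels' protocols. The tools named are featureCounts 2.0.1, Bowtie2 2.3.3, SAMtools 1.9, FastQC 0.11.5 and DESeq2, with mm10 as the build, per the submitters' processing notes. The deposited tables held TPM computed by the authors, and the sources used here do not give the filter that set their gene lists (13468 genes for BMP4, 13492 for LDN193189) or the use of strand.

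The 13185 genes in both tables were rescaled to 1000000 per library. They held 99.98% of its TPM, and genes in only 1 table reached at most 10.2 TPM. Each table was normalized separately, so levels set across them rest on this rescaling. Genes that reached 1 TPM in 2 or more of the 8 libraries were tested on log2(TPM + 1), which understates changes of low genes, with limma 3.58.1 (R 4.3.3, trended prior) in 4 groups with a term for the HMCES-KO line. Calls were made at a Benjamini-Hochberg adjusted p under 0.05. The fit was tested on simulated data. Titles name the same 2 knockout lines in both tables, and KO2 minus KO1 correlated between tables across 12526 genes at r = 0.31. WT replicate numbers name nothing shared, and their r was -0.00.

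Whole reads were recovered for 13181 genes, where 100.0% of values above 0 were whole within 0.05 reads. A unit was solved per gene, which partly fixes that outcome. These reads went to limma voom, an alternative added after the data were seen, which calls 15 genes. Genes were placed with RefSeq GRCm38.p6.

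Groups came from the labels. They do not say whether libraries stem from separate cultures, so the p-values cover only how these libraries vary, and that may be technical. Members and lists were chosen with earlier results of these data known. Genes were named by rule: Hmces, the BMP list, up to 12 called genes in each direction (filled to 6 by smallest p), 8 genes by the p of the difference between genotypes (1 of them is not reported here), and for each other list its called members or the member furthest from 0. Genes named outside it were chosen after their values were seen. The untreated and count tables were not used here.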

Additional observations from a re-analysis of the deposited data

How the results depend on the processing

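In HMCES-KO cells the count of 5 called genes became 0 with limma without trend, 3 with all 16 treated libraries (Id1, Id2 and Id3) and 15 with voom on the recovered reads. Without the replicate block, which pairs the lines, 4 genes were called, and Lefty1 was the one lost. Leaving out 1 library at a time gave 5 each time: without KO1 under either agent Cox8a and Rpl32 took the place of Lefty1 and Smad7, and without KO2 under either agent Snrpg took that of Smad7. The 4 HMCES-KO libraries alone gave 7, and they added 3110082J24Rik, higher under BMP4, and Ltc4s, lower under BMP4. Both genes rested on few reads, and Ltc4s had 0 in each line under BMP4 and 13 and 4 under LDN193189. Cox8a, Rpl32 and Snrpg were also lower under BMP4. Whether any lower gene was called thus depended on the setting. Id1, Id2 and Id3 were called in 18 of 19 alternatives each, Lefty1 in 14 and Smad7 in 13. Other pseudocounts, filters and median-ratio scaling gave the same 5 as the main setting.

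In WT cells 2 became 0 without trend and 0 with no replicate block, 4 with all 16 libraries, 7 with voom and 1 to 3 leaving out 1 library. The count for the difference between genotypes, 0, became 2 with voom and 0 to 1 leaving out 1 library (Id1 without KO1 under either agent). Of 1007 values for 54 named genes, 977 kept direction and call. Most of the 54 were uncalled in the main fit, and staying uncalled counts as kept. The 14 values that lost a call were all of Id1, Id2, Id3, Lefty1 and Smad7. Leaving out 1 library turned the sign of Msx1 (-0.55 to 1.03), Msx2 (-0.66 to 0.50), Gata3 (-0.48 to 0.58), Hand1 (-0.00 to 0.93), Cdx2 (-0.22 to 1.49), Fos (-0.01 to 1.30) and Cdx1 (-0.42 to 1.58) in HMCES-KO cells and of Bambi in WT cells (-0.05 to 0.00), and voom turned Msx2 (0.06). For the other changes of call the cause was not tested. A fit that leaves out 1 HMCES-KO library rests on the other line, whose libraries are assumed to vary like the rest. Depth limits the low genes: at recovered totals of 4.07 to 5.24, in units of 1000000 reads, Gsc rested on 2 and 12 reads under BMP4.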

Other observations

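On the recovered reads, an alternative chosen after seeing the data, limma voom called genes of other kinds between BMP4 and LDN193189 in HMCES-KO cells. Macf1, a linker of microtubules and actin, had 13.1 and 12.1 TPM under BMP4 and 7.49 and 7.76 TPM under LDN193189, a log2 difference of 0.74 ± 0.13 (adjusted p = 0.0026). Tead2, a partner of YAP, had 61.9 and 64.4 TPM under BMP4 and 48.7 and 33.5 TPM under LDN193189 (0.64 ± 0.13, voom adjusted p = 0.036). Tti2, part of a complex that stabilises PI3K-like kinases, had 81.6 and 76.3 TPM under BMP4 and 60.5 and 43.4 TPM under LDN193189 (0.62 ± 0.12, voom adjusted p = 0.011). Eif2s2, a subunit of the initiation factor eIF2, had 5.68 and 2.91 TPM under BMP4 and 0.687 and 0.301 TPM under LDN193189, on 75 and 39 reads against 9 and 4. Its voom log2 difference was 3.04 ± 0.59 (adjusted p = 0.016), and limma on log2(TPM + 1) gave 1.79 ± 0.33 (adjusted p = 0.41).

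The 2 genes that voom called lower under BMP4 were well expressed. Zfp622, a zinc finger protein, had 481 and 565 TPM under BMP4 and 601 and 769.7 TPM under LDN193189 (-0.37 ± 0.08, voom adjusted p = 0.025). Ajuba, a LIM-domain scaffold, had 446 and 379 TPM under BMP4 and 497 and 591 TPM under LDN193189 (-0.39 ± 0.08, voom adjusted p = 0.049). None of these 6 genes was called by limma on log2(TPM + 1), where Macf1 had 0.66 ± 0.22 and Zfp622 -0.38 ± 0.08. For the difference between genotypes voom called Anp32a, a chaperone of histones (-0.72 ± 0.13, adjusted p = 0.043), with 214 and 234 TPM under BMP4 and 315 and 269 TPM under LDN193189 in HMCES-KO cells, against 308 and 309.6 TPM under BMP4 and 241 and 249.8 TPM under LDN193189 in WT cells.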
